A study of Mus musculus with 8 samples.

Results

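Sialyltransferases move sialic acid from its activated donor, CMP-sialic acid, onto the ends of glycans in the Golgi, and the enzyme names give the sugar that is extended and the linkage that is made. The 10 genes described here are St6galnac1 and 9 relatives: St6galnac2 to St6galnac6, St6gal1, St3gal1, St3gal4 and St3gal6. They were found by matching the RefSeq accession of each non-control probe on an Agilent mouse array to the gene symbol, and every matching probe was kept. This gave 14 probes of 55681, and 10 genes of the 20145 that could be named. St6galnac1 was chosen by the size of its difference between the same 2 groups of arrays, so its values are a description and carry no test. The other 9 genes were listed with earlier results of these arrays known, so a pass or a failure of the test below says what the fit across all probes gives for that probe and nothing about the family.

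St6galnac1 encodes the enzyme that makes sialyl-Tn, an O-glycan of a single N-acetylgalactosamine capped with sialic acid, which is known as a carbohydrate antigen of many carcinomas. The products of St6galnac2 to St6galnac6 act on O-glycans or on glycolipids, St6gal1 caps the galactose of N-glycans, and the St3gal enzymes cap galactose through a different linkage. Sialylated glycans on mammary tumour cells and on tumour endothelium are ligands for selectins and Siglecs.

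The arrays measured total RNA with 1 colour (Cy3). 4T1 cells, a mouse mammary carcinoma line, received empty adenovirus (4 control arrays) or adenovirus carrying PRH (4 PRH-labelled arrays) for 24 h, at a multiplicity of infection of 50. All cells were thus exposed to adenovirus before they were placed in the no. 3 fat pad of female BALB/c mice of 6 to 8 weeks, and tumours were collected on day 22. Both groups hold mouse numbers 1, 2, 3 and 5. The labels disagree on the material: the series design names whole tumours, while the extraction protocol names endothelial isolates. In bulk RNA of either kind, fewer cells of a type and less RNA per cell cannot be told apart. The series design describes human arrays, although the probes carry mouse accessions.

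Levels below are log2 signals relative to the 75th percentile of the same array, so that 0 is the level of that percentile and 1 unit is a doubling. PRH is the product of Hhex, and the Hhex probe (A_52_P528600) read -0.54, -0.33, -0.69 and -0.78 on control arrays 1, 2, 3 and 5 and -1.71, -1.46, -1.79 and -1.72 on the PRH-labelled arrays. It was thus lower in the group labelled with its product, by 1.09 (log2 difference -1.09, SE 0.148, adjusted p = 0.00674), and the labels do not say from which species the PRH in the virus came or whether this probe would read it. For this reason the arrays are called PRH-labelled throughout, and a direction given below is between the labels. The control arrays had a higher 75th percentile (1094 ± 131 signal units, SD, n = 4) than the PRH-labelled arrays (722 ± 41.2), and fewer probes well above background (66.7% ± 2.30 against 73.2% ± 0.773). An exact permutation test (two-sided, 70 arrangements) gave p = 0.0286 for both, the smallest p that 4 against 4 arrays allow. When arrays were exchanged only within a mouse number (16 arrangements, exact), p was 0.125 for both, which is the smallest p that 4 pairs allow, so this design cannot reach the threshold. The array barcodes in the file headers carry position numbers. The first of these was 2 on all control arrays and 1 on all PRH-labelled arrays, and this position cannot be told apart from the group. The 5 markers of the carcinoma line and luminal epithelium and the 7 endothelial markers were well above background on all 8 arrays. Of the former Krt18 rose by 0.52 (adjusted p = 0.0260), Krt8 differed by -0.44 without overlap and did not pass (adjusted p = 0.0763), and their mean level lay between 4.16 and 4.98 on the control arrays and between 4.75 and 5.08 on the PRH-labelled arrays. Of the latter 1 Kdr probe rose by 1.17 (adjusted p = 0.0243) while another Kdr probe differed by -0.48. Pecam1, Emcn and Cldn5 differed by 0.46, 0.24 and 0.98 and did not pass. Tek, Tie1 and Cdh5 differed by -0.52, -0.086 and -0.066 and did not pass either. The median difference of the endothelial markers was 0.24. Their mean level lay between -0.46 and 1.17 on the control arrays and between 0.59 and 0.94 on the PRH-labelled arrays. Of 6 keratinocyte markers only Krt14 passed, with a rise of 1.93 (adjusted p = 0.0188). Krt1, Krt5, Lor and Ivl differed by 3.08, 2.89, 2.8 and 2.34 and Krt10 by 0.17, all with overlapping groups. The part of these markers in the results below was not tested.

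**Figure D1:**
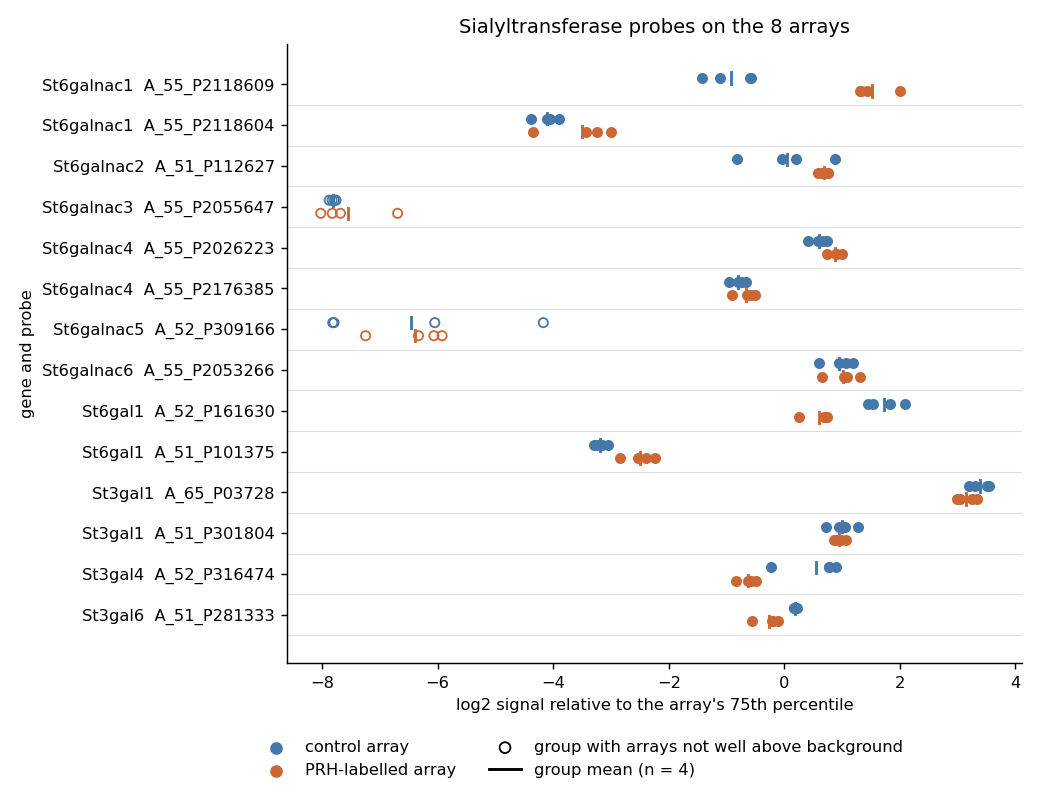
Level of each of the 14 sialyltransferase probes (log2 signal relative to the array's 75th percentile, horizontal axis) on the 4 control arrays (blue) and the 4 PRH-labelled arrays (orange), with vertical ticks for the group means. The brighter St6galnac1 probe stands clear at the top, with control arrays between -1.43 and -0.58 and PRH-labelled arrays between 1.30 and 2.00; open circles mark the St6galnac3 and St6galnac5 probes, which were not well above background on most or all arrays.

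Of the 14 probes, 12 (8 genes) were well above background on at least 4 arrays and were tested. Leaving out both St6galnac1 probes, 10 probes of 7 genes remained: 1 rose, 3 fell and 6 did not pass. Over all 39463 tested probes 26.2% passed, 16.1% higher and 10.1% lower. The median difference of the 10 probes was 0.0085, beside 0.22 over all tested probes and -0.021 over the brightest probe of each of 16377 named genes. The groups did not overlap for 4 of the 10 probes (1 higher, 3 lower), beside 31.5% of all tested probes (18.8% higher, 12.7% lower). One probe each of St6gal1, St3gal4 and St3gal6 fell, and the probe that rose was the other St6gal1 probe. Median centring moved the difference of every probe down by the same amount, and with it the median over all tested probes from 0.22 to -0.25.

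St6galnac1 has 2 probes, and they gave different pictures. The brighter one (A_55_P2118609) read -1.12, -1.43, -0.59 and -0.58 on control arrays 1, 2, 3 and 5. The PRH-labelled arrays read 1.30, 1.43, 2.00 and 1.32. Every PRH-labelled array was higher than every control array, and PRH-labelled array 3 was the highest of all. The difference was 2.44 (SE 0.255), a 5.43-fold higher signal, while the median difference of 3946 probes of like brightness was -0.086. Under the other scalings the difference of this probe lay between 1.98 and 2.40, and with 1 array left out between 2.27 and 2.56.

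The dimmer St6galnac1 probe (A_55_P2118604) read -4.38, -4.10, -4.05 and -3.91 on the control arrays. On the PRH-labelled arrays it read -3.44, -3.24, -4.35 and -3.01. PRH-labelled array 3, where the brighter probe was highest, was here the lowest of its group and lay among the control arrays, so the groups overlapped. The difference was 0.60 (SE 0.291), beside a median of 0.61 for 3946 probes of like brightness, and it fell to between 0.077 and 0.14 under median centring, quantile normalization, normexp background correction and the authors' own normalization. Across the 8 arrays the signals of the 2 probes had a Pearson r of 0.52, which became -0.41 once each group's mean was subtracted. Both probes carry the same RefSeq accession, and where each lies in the transcript was not analysed here.

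**Figure D2:**
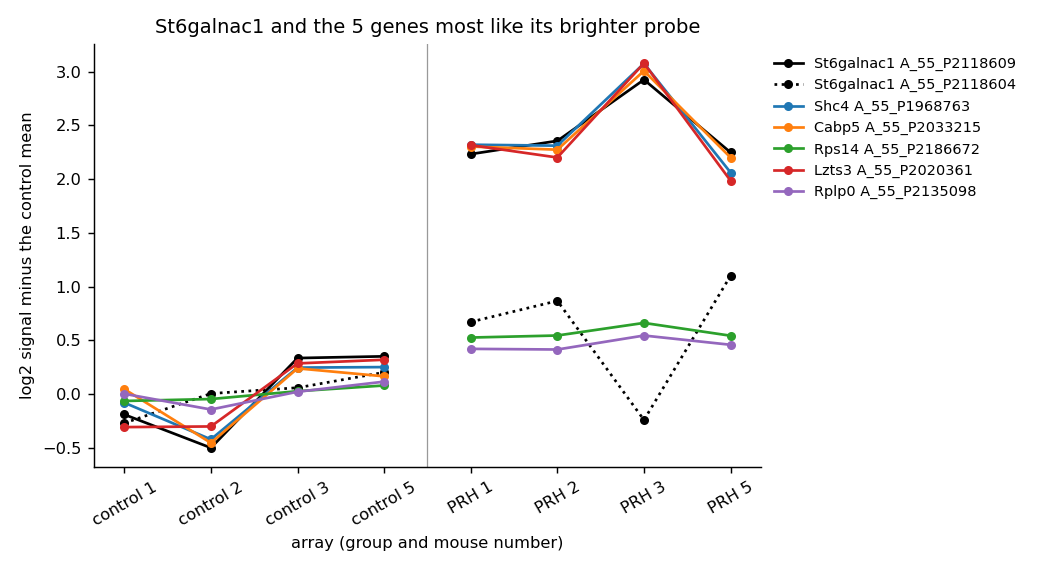
Signal of both St6galnac1 probes and of the 5 named genes whose probe ran closest to the brighter one, as log2 signal minus the probe's own control mean (vertical axis), on the 8 arrays (horizontal axis, points joined only to guide the eye). The Shc4, Cabp5 and Lzts3 probes overlie the brighter St6galnac1 probe (solid black) on every array, including the high value on PRH-labelled array 3, whereas the dimmer St6galnac1 probe (dotted black) drops to control level there.

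Among 21297 named, tested probes, the 5 genes with the highest Pearson r to the brighter St6galnac1 probe over the 8 arrays were Shc4, Cabp5, Rps14, Lzts3 and Rplp0. Shc4 encodes a Shc-family adaptor protein, Cabp5 a calcium-binding protein, Lzts3 a leucine zipper protein, and Rps14 and Rplp0 ribosomal proteins. Shc4 reached r = 0.996 over all arrays and 0.941 after the group means were subtracted. Cabp5 reached 0.995 and 0.925, and Lzts3 0.993 and 0.914. These 3 probes also matched St6galnac1 in size of difference, with 2.44 for Shc4, 2.45 for Cabp5 and 2.40 for Lzts3, although their control means ranged from 0.18 to 1.27 where St6galnac1's was -0.93. Rps14 (r = 0.994, 0.917 after group means) and Rplp0 (0.989 and 0.883) had smaller differences, of 0.57 and 0.46, which turned negative under other scalings (normexp, -0.054 and -0.15). The 8 arrays behind each r share 1 slide and the 2 groups, and the 5 genes were picked as the highest of many.

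Other probes of these genes ran less close to the brighter St6galnac1 probe. A second Shc4 probe (A_51_P356602) differed by 1.17. Its r to the brighter St6galnac1 probe was 0.84 over the 8 arrays and -0.17 after group means were subtracted. A second Cabp5 probe (A_55_P2055504) differed by 1.00, with r = 0.82 over the 8 arrays and -0.57 after group means. Further Rplp0 probes differed by -0.017 and -0.16. Their r was 0.021 and -0.42 over the 8 arrays, and 0.48 and 0.70 after group means were subtracted.

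St6galnac2, which sialylates O-glycan cores, was read by 1 probe (A_51_P112627) printed as 10 spots on each array. It read 0.87, 0.20, -0.83 and -0.04 on control arrays 1, 2, 3 and 5. The PRH-labelled arrays read 0.59, 0.65, 0.75 and 0.76. The PRH-labelled arrays were nearly level (SD 0.0851) while the control arrays spread widely (SD 0.700), with control array 1 above all others and control array 3 below all others. The difference of 0.64 (SE 0.327) did not pass (adjusted p = 0.192), and it passed without control array 1 (0.91, adjusted p = 0.0325). Control array 1 was also the array with high B-cell transcripts, with Cd79b at 4.07 against -2.08 to -1.67 on the other control arrays. Over the 4 B-cell markers the mean level spanned -4.88 to 2.25 in the control group and -4.31 to -3.73 in the PRH-labelled group. The neutrophil markers S100a8 (5.19, 4.28, 0.10 and 3.53) and S100a9 (6.55, 5.94, 2.05 and 5.48) ordered control arrays 1, 2, 3 and 5 as St6galnac2 did. On the PRH-labelled arrays their order differed from that of St6galnac2 (S100a8 at 4.11, 3.25, 3.64 and 2.65). The part of either cell type in the St6galnac2 level was not tested.

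St6galnac4, which acts on sialylated O-glycans, was measured by 2 probes. A_55_P2026223 read 0.66, 0.74, 0.58 and 0.41 on the control arrays and 0.99, 0.89, 0.73 and 0.89 on the PRH-labelled arrays. The groups overlapped by a single pair of arrays, and the difference of 0.28 (SE 0.128) did not pass (adjusted p = 0.153). A_55_P2176385 read -0.74, -0.97, -0.81 and -0.67 against -0.90, -0.65, -0.58 and -0.51, again with overlap, and differed by 0.14 (SE 0.139, adjusted p = 0.487). Median centring turned both differences negative (-0.19 and -0.33), and quantile normalization turned the second (-0.030).

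St6galnac6, an enzyme of glycolipid sialylation, read 0.59, 1.19, 0.95 and 1.06 on the control arrays (A_55_P2053266). It read 0.64, 1.08, 1.30 and 1.02 on the PRH-labelled arrays. The 2 groups covered nearly the same range, array 1 was the lowest in both, and the difference was 0.062 (SE 0.194, adjusted p = 0.826), with a sign that changed under median centring (-0.40).

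St6galnac3 and St6galnac5 encode enzymes that add sialic acid to gangliosides, and neither gave a level to compare. The St6galnac3 probe (A_55_P2055647) was well above background on 0 of 8 arrays. The St6galnac5 probe (A_52_P309166) was well above background on control array 1 only, at -4.17, where the other control arrays read -7.82, -7.80 and -6.05 and the PRH-labelled arrays between -7.25 and -5.92. No fold is given for either gene.

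St6gal1, the enzyme that caps N-glycan galactose, also had 2 probes, and these moved in opposite directions. The brighter probe (A_52_P161630) read 1.53, 2.08, 1.45 and 1.83 on the control arrays. On the PRH-labelled arrays it read 0.26, 0.69, 0.74 and 0.71. All 4 PRH-labelled arrays were below all 4 control arrays, with PRH-labelled array 1 the lowest. The signal fell by 1.12 in log2 units (adjusted p = 0.00810, SE 0.192), and the median difference of probes of like brightness was -0.16. It passed under all 5 scalings, with differences from -1.59 to -0.97, and with any of the 8 arrays left out.

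The dimmer St6gal1 probe (A_51_P101375, 10 spots) read -3.05, -3.16, -3.30 and -3.24 on the control arrays. On the PRH-labelled arrays it read -2.39, -2.84, -2.25 and -2.54. Here every PRH-labelled array was above every control array, and the signal rose by 0.68 (SE 0.159, adjusted p = 0.0188), beside a median difference of 0.55 for 3946 probes of like brightness. The call was lost under 3 of the 5 scalings, where the difference fell as low as 0.22, and without control array 5 (adjusted p = 0.0543) or PRH-labelled array 1 (adjusted p = 0.0544).

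The 10 spots of that dimmer probe did not read alike. On a given array the highest spot was 2.42 to 10.4 times the lowest, with a median of 4.89. Among the 85 probes with 10 spots and a mean signal of 50 to 400, the median of this ratio was 1.45, and 12 of the 85 were at least as uneven. The 4 spots in the first 100 rows of the slide had geometric means of 137 to 258 signal units over the 8 arrays, and the other 6 of 65.8 to 117. The first 4 spots differed by 1.06 between the groups, without overlap, whereas the other 6 differed by 0.43, with overlap, and did not pass. Those 6 held both bright and dim spots. Of the 10 spots, 4, 7, 7 and 6 read above 100 signal units on control arrays 1, 2, 3 and 5. On the PRH-labelled arrays 6, 6, 7 and 6 did. For comparison, the 10 St6galnac2 spots lay within a ratio of 1.17 to 1.35 on every array, so the spread among the St6galnac2 control arrays was far larger than that among its spots.

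**Figure D3:**
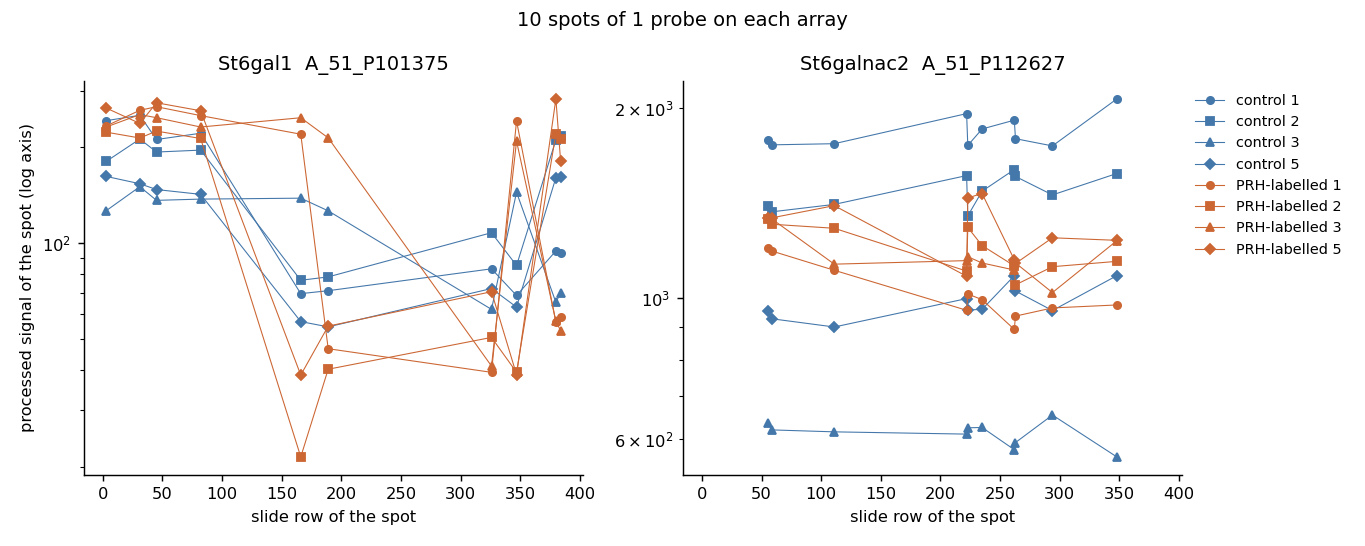
Processed signal of each of the 10 spots (vertical log axis, signal units) against the row of the spot on the slide, for the dimmer St6gal1 probe (left) and the St6galnac2 probe (right), with 1 line per array. The first 4 St6gal1 spots are high on all 8 arrays and the later spots jump between levels within 1 array, while each array's St6galnac2 line is nearly flat.

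St3gal1, which caps the core disaccharide of O-glycans, did not pass with either of its probes. A_65_P03728 read 3.20, 3.30, 3.51 and 3.54 on the control arrays and 3.24, 3.34, 3.03 and 2.99 on the PRH-labelled arrays. The groups overlapped through array numbers 1 and 2, and the difference of -0.23 (SE 0.146) did not pass (adjusted p = 0.269), although it did under median centring (-0.70, adjusted p = 0.0314). A_51_P301804 read 0.72, 1.05, 0.95 and 1.27 against 0.90, 1.06, 0.98 and 0.85, so that the PRH-labelled arrays lay within the control range. It differed by -0.045 (SE 0.148, adjusted p = 0.835), with a positive sign under quantile normalization, normexp and the authors' values (0.019 to 0.075).

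St3gal4, which takes part in making selectin ligands, read -0.23, 0.76, 0.76 and 0.88 on the control arrays (A_52_P316474). The PRH-labelled arrays read -0.63, -0.48, -0.58 and -0.83. Every PRH-labelled array was lower than every control array, and control array 1, the array with high B-cell transcripts, lay apart from the other control arrays and closest to the PRH-labelled ones. The signal fell by 1.18 (SE 0.259, adjusted p = 0.0156), which was 2.26-fold lower. It passed under all 5 scalings (-1.64 to -1.02) and with each of the 8 arrays left out, but not with spike-in centring (-1.305, adjusted p = 0.153). Without control array 1 the difference was -1.43.

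St3gal6, which also caps galactose on selectin ligands, read 0.20, 0.16, 0.17 and 0.21 on the control arrays (A_51_P281333). On the PRH-labelled arrays it read -0.11, -0.20, -0.21 and -0.57. The control arrays were almost identical (SD 0.0248), all PRH-labelled arrays lay below them, and array 5 was the lowest. The signal fell by 0.46 (SE 0.136, adjusted p = 0.0425), which was 1.37-fold lower. The call held under the 5 scalings (-0.92 to -0.46) and not with spike-in centring (-0.59, adjusted p = 0.39). It was lost in 7 of the 8 fits that each leave out 1 array, all but that without control array 1, with adjusted p from 0.0587 (without PRH-labelled array 1) to 0.102 (without control array 5). It was also lost when mouse number entered as a block (adjusted p = 0.0661) and with no filter on dim probes (adjusted p = 0.0653).

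**Figure D4:**
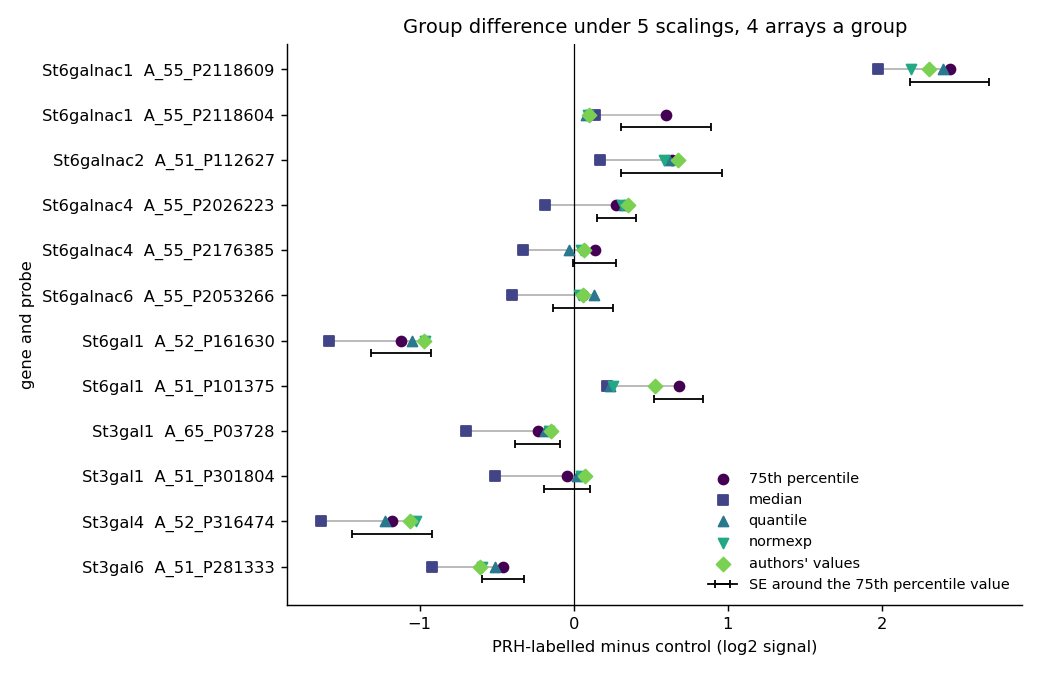
Difference between the groups (PRH-labelled minus control, log2 signal, 4 arrays a group) for the 12 tested probes under 5 scalings, with the standard error around the 75th-percentile value drawn under each row. Median centring (squares) moves every probe to the left of its 75th-percentile value; the brighter St6gal1 probe, St3gal4 and St3gal6 stay below 0 and the brighter St6galnac1 probe stays at 1.98 or above under all 5, whereas the St6galnac4 and St6galnac6 probes and the dimmer St3gal1 probe cross 0.

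The 3 genes with a probe that fell have an upstream window in RefSeq (build GRCm38.p6), shown here because PRH is a homeodomain protein and such proteins bind DNA around the letters ATTA. The windows are the 250 bases before the annotated start, and bases that lie inside the gene itself were left out. Printed 5′ to 3′ on the gene's strand, with ATTA and its reverse complement TAAT in capitals, they are the St3gal4 window at chr9:35116865-35117114 (minus strand), the St3gal6 window at chr16:58524261-58524503 (minus strand) and the St6gal1 window at chr16:23224490-23224728 (plus strand).
St3gal4: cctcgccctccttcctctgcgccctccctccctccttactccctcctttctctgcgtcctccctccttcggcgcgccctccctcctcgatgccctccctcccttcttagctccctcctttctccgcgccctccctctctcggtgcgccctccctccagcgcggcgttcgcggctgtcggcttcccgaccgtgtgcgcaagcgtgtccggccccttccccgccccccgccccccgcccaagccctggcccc
St3gal6: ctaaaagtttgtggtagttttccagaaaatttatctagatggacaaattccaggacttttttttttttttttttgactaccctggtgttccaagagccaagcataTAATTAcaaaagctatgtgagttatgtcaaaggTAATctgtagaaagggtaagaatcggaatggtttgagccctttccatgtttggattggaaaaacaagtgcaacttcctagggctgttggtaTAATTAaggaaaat
St6gal1: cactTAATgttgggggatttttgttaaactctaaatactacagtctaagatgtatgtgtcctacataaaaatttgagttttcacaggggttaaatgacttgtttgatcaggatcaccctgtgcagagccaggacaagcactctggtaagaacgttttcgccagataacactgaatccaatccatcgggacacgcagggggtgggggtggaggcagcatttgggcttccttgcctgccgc

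The St3gal4 window is rich in G and C (72.8%) and holds no match. The St3gal6 window (34.8% G and C over its 250 bases) holds 5 matches in 3 stretches, of which both TAATTA stretches count as 2 because they read the same on either strand, and the nearest lies 19 bases before the start. The St6gal1 window (47.2%) holds 1 match, 246 bases before the start. Over 32851 RefSeq windows of the same length 54.9% hold at least 1 match, and a match is a description of these letters and not a binding site. St3gal6 and St6gal1 each have other annotated starts, whose windows lie inside the gene and are not shown. The St3gal4 and St6gal1 windows also overlap the annotated transcripts 4930581F22Rik and BC106179. Windows were found for 6 of the 10 genes, and St6galnac1, St6galnac2, St6galnac5 and St3gal1 were not among them. Of the genes for which no window is shown, St6galnac6, which was not called, held 1 match, 241 bases before the start. The St6galnac3 and St6galnac4 windows held 0.

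In the RefSeq gene order St6galnac1 and St6galnac2 lie on the same chromosome with BC018473 as a gene near both. The window upstream of St6galnac6 overlaps the St6galnac4 and Gm52551 genes. BC018473, next to St6galnac1, read -2.61, -2.72, -2.98 and -2.66 on the control arrays and -2.11, -1.30, -2.40 and -1.89 on the PRH-labelled arrays. It rose by 0.82 (SE 0.241, adjusted p = 0.0418) without overlap, but the call was kept under 1 of 5 scalings (0.25 to 0.41 under the others) and in 1 of the 8 fits without 1 array, that without PRH-labelled array 3 (adjusted p up to 0.0938, without control array 3). Mxra7, on the other side of St6galnac1, differed by 0.38 (adjusted p = 0.168), and Snhg16, beside St6galnac2, by 0.36 (adjusted p = 0.203).

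**Figure D5:**
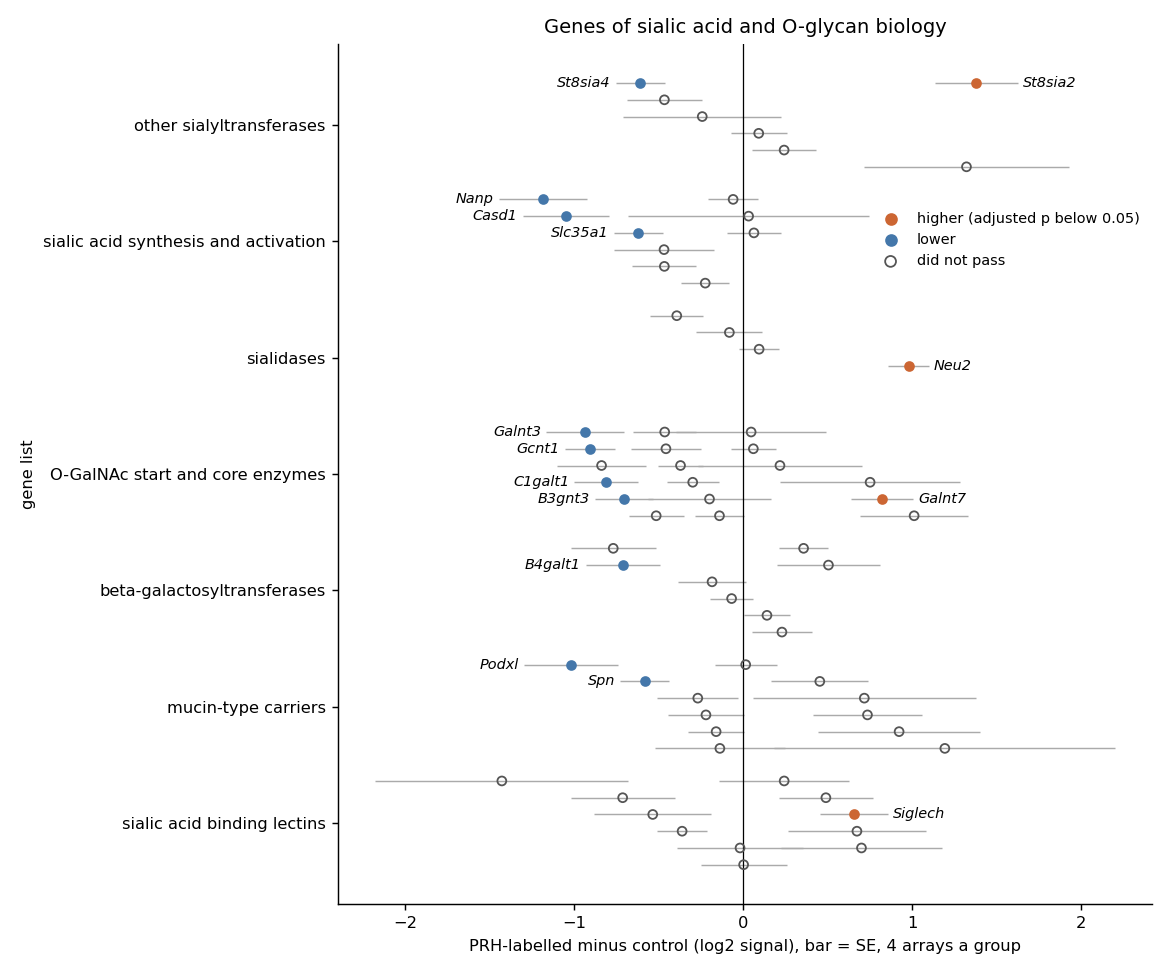
Difference between the groups (PRH-labelled minus control, log2 signal, with its standard error) for the 69 tested genes of 7 lists around sialic acid and O-glycans, 1 probe a gene. Filled points passed the test and are named, 4 to the right of 0 and 11 to the left.

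The genes around these enzymes were read from 7 lists of 84 genes, of which 82 had a probe and 69 a tested one. Of the 69, 4 rose, 11 fell and 54 did not pass, beside 10.7% higher and 13.1% lower (23.9% in all) among 16377 named genes, and their median difference was -0.14 beside -0.021. Another tested probe existed for 23 of the genes, and for 11 of these it had the opposite sign.

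Of 7 further sialyltransferases tested, among them enzymes of glycolipids and of polysialic acid, 1 rose and 1 fell. St8sia2, a polysialic acid synthase, read -2.08, -3.17, -2.81 and -2.61 on the control arrays and -1.02, -1.56, -1.28 and -1.29 on the PRH-labelled arrays. The groups did not overlap, and it rose by 1.38 (SE 0.245, adjusted p = 0.00876), with a call under all 5 scalings (0.74 to 1.38). With spike-in centring it did not pass (1.25, adjusted p = 0.122). St8sia4, the other polysialic acid synthase, read between 1.04 and 1.53 on the control arrays and between 0.60 and 0.81 on the PRH-labelled arrays. It fell by 0.61 (SE 0.146, adjusted p = 0.0205), and the call was lost without control array 2 (adjusted p = 0.0572) or any of PRH-labelled arrays 1, 3 and 5 (0.0503 to 0.0547).

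Among 9 genes that make, activate, transport, modify or break down sialic acid, 0 rose and 3 fell, with a median difference of -0.47. Nanp, the phosphatase of the last step of sialic acid synthesis, fell by 1.19 (SE 0.260, adjusted p = 0.0154) and passed with each of the 8 arrays left out. Slc35a1, the transporter that carries CMP-sialic acid into the Golgi, fell by 0.62 (SE 0.146, adjusted p = 0.0195). Casd1, which acetylates sialic acid, fell by 1.05 (SE 0.256, adjusted p = 0.0219), and a second probe differed by -1.06. All 3 had groups that did not overlap. The call of Slc35a1 was lost without control array 5 or PRH-labelled arrays 1 or 2 (adjusted p = 0.0517 to 0.0567), and that of Casd1 without any 1 of control arrays 2, 3 and 5 and PRH-labelled arrays 2 and 5 (adjusted p = 0.0527 to 0.0617).

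Of 4 tested genes of the sialidase list, Neu1, Neu2, Neu3 and Ctsa, only Neu2 passed; the Neu enzymes remove sialic acid, and Ctsa is the protective protein of Neu1. Neu2 read between -0.54 and -0.24 on the control arrays and between 0.58 and 0.72 on the PRH-labelled arrays. Neu2, a cytosolic sialidase, rose by 0.98 (SE 0.120, adjusted p = 0.00674). It passed under all 5 scalings, with differences from 0.51 to 0.98, and with each array left out. With spike-in centring it did not pass (0.85, adjusted p = 0.231). Neu4 was above background on 0 arrays.

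The 18 tested enzymes that start O-glycans or build their cores, and thus make the acceptors of the St6galnac enzymes, held 1 that rose and 4 that fell, with a median of -0.34. Gcnt1, which branches the core, read between -1.64 and -1.48 on the control arrays and between -2.73 and -2.17 on the PRH-labelled arrays, and fell by 0.91 (SE 0.146, adjusted p = 0.00732). C1galt1, which extends the Tn antigen that St6galnac1 would otherwise cap, read between -0.58 and -0.06 against -1.47 to -0.85, and fell by 0.81 (SE 0.187, adjusted p = 0.0182). Both had groups that did not overlap. B3gnt3, which extends core structures, fell by 0.71 (adjusted p = 0.0206), and Galnt3, which starts O-glycans, fell by 0.94 (adjusted p = 0.0225). Galnt7, which adds to already glycosylated peptides, rose by 0.82 (SE 0.184, adjusted p = 0.0166), and it did not pass under median centring (0.36, adjusted p = 0.180). Without control array 5 the adjusted p was 0.0506 for Galnt7, 0.0641 for Galnt3 and 0.0586 for B3gnt3, and without PRH-labelled array 1 it was 0.0512 for C1galt1, 0.0624 for Galnt3 and 0.0583 for B3gnt3. Galnt3 was also lost without PRH-labelled arrays 2 or 5, and B3gnt3 without control array 2 or PRH-labelled arrays 3 or 5, whereas Gcnt1 passed in all 8 fits without 1 array.

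In the last 3 lists few genes passed, and those that did mostly depended on single arrays. Of 8 beta-galactosyltransferases, which make the galactose ends that St6gal1 and the St3gal enzymes cap, B4galt1 fell by 0.71 (adjusted p = 0.0478), and its other probe differed by -0.02. Of 12 mucin-type carriers of O-glycans, Spn (CD43) fell by 0.58 (adjusted p = 0.0234) and Podxl, a podocalyxin, by 1.02 (adjusted p = 0.0322). Of 11 sialic acid binding lectins, Siglech, a lectin of plasmacytoid dendritic cells, rose by 0.66 (adjusted p = 0.0484) with overlapping groups, while its other probe differed by -1.19. Siglech did not pass under any of the other 4 scalings (0.19 to 0.62, adjusted p = 0.0694 to 0.516). Spn lost its call under normexp (-0.44, adjusted p = 0.0706) and with the authors' values (-0.43, adjusted p = 0.0931), and without control array 3 or PRH-labelled arrays 1, 2 or 5 (adjusted p up to 0.0669). B4galt1 and Podxl kept theirs only without control array 1, and Siglech only without PRH-labelled array 1. Their adjusted p reached 0.117 (B4galt1, without control array 2), 0.0856 (Podxl, without control array 5) and 0.114 (Siglech, without PRH-labelled array 2).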

How the data were processed

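Per the file headers, the deposited intensities of the 8 Agilent arrays were made with Feature Extraction 10.7.3.1, with the array design placed on mm9, and the submitters' processing notes name version 9.1. The deposited processed signal is a background-corrected intensity on a linear scale. A deposited table of the authors' normalized intensity values was used as an alternative. Here log2 processed signals were centred on each array's 75th percentile over non-control spots, and spots of 1 probe were averaged. Probes well above background on at least 4 arrays were tested with limma 3.58.1 in R 4.3.3 (two-sided, Benjamini-Hochberg over 39463 probes, threshold 0.05), checked on simulated data. Control and PRH-labelled arrays, 4 each, were compared, with no block. Of 26392 probes with a RefSeq mRNA accession, 25869 were matched to a gene. Alternatives were median centring, quantile normalization, normexp (offset 50, on gMedianSignal, since the files read hold no gMeanSignal), the authors' values, 7 spike-in probes, other filters, 1 probe a gene, a mouse-number block and leaving out each array; splitting the 10 St6gal1 spots and permuting array measures within mouse numbers were added after the data were seen. In the text "5 scalings" means the first 4 and the 75th percentile.

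Same-numbered arrays deviated together from their group means (r = 0.200, 0.422, 0.651 and 0.257 for numbers 1, 2, 3 and 5). Each number also goes with its own second position number in the array barcode. The main fit did not use the numbers as pairs, and only the alternative with a mouse-number block did. The p-values given without a named alternative thus ignore a possible pairing. They rest on the spread between arrays of a group, and 4 arrays a group limit the precision. The members and gene lists were chosen with earlier results of these data known. Named were every member probe, Hhex, the called genes of each list, the nearest tested neighbours of St6galnac1 and St6galnac2, and the 5 genes most like the brighter St6galnac1 probe. Krt18, Krt8, the keratinocyte and endothelial markers, S100a8, S100a9 and the B-cell markers were named after their values were seen.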

Additional observations from a re-analysis of the deposited data

Results flagged for a closer look

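Among 72 groups of 4 arrays, 8 held 1 array that lay far from the other 3 for the range of its group, where chance sets apart about 1 group in 20 (Dixon's test). Values are log2 signals relative to the array's 75th percentile. Among the sialyltransferases, the brighter St6gal1 probe read 0.26 on PRH-labelled array 1 and 0.69 to 0.74 on the others. St3gal4 read -0.23 on control array 1 and 0.76 to 0.88 on the others. St8sia4 read 0.60 on PRH-labelled array 3 and 0.77 to 0.81 on the others. In the surrounding lists, Neu2 read 0.72 on PRH-labelled array 1 and 0.58 to 0.60 on the others, and Podxl read -1.80 on PRH-labelled array 3 and -1.56 to -1.54 on the others. Snhg16, beside St6galnac2, read 2.36 on PRH-labelled array 1 and 2.87 to 2.90 on the others. Cabp5 and Rps14, which ran in parallel with the brighter St6galnac1 probe, read 4.28 and 8.80 on PRH-labelled array 3, where their other arrays read 3.47 to 3.58 and 8.66 to 8.68.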

How the results depend on the processing

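Spike-in centring left 3 calls of 39463 probes (8030 at an unadjusted p under the threshold), 0 among the sialyltransferases and 0 among the 69 pathway genes. Median centring gave 30 pathway calls, and turned the split over all probes to 3118 higher and 9859 lower. Between 3921 and 4468 were higher and between 5886 and 6224 lower under quantile normalization, normexp and the authors' values. With 1 array left out, calls ranged from 6591 to 13355 over all probes, from 2 to 5 of 10 sialyltransferase probes and from 7 to 24 pathway genes. The lowest totals came without control array 5 (6591), PRH-labelled array 1 (6665), control array 2 (6707) and PRH-labelled array 5 (6865), and the sialyltransferase count was 2 without control array 5 or PRH-labelled array 1. With mouse number as a replicate block 13560 probes, 3 sialyltransferase probes and 19 pathway genes passed. The block ended the calls of St3gal6 (adjusted p = 0.0661) and Siglech (0.0613). It ended no other call among the sialyltransferase probes, Hhex, the pathway genes and the neighbours. The markers Krt18, Krt14 and Kdr were not read out under the alternatives.

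Signs turned under median centring for St6galnac4 (-0.19 and -0.33), St6galnac6 (-0.40), Mxra7 (-0.084), Snhg16 (-0.10) and Rplp0 (-0.0044); under quantile normalization for the second St6galnac4 probe (-0.030), the dimmer St3gal1 probe (0.019) and Rplp0 (-0.019); under normexp for St3gal1 (0.045), Rps14 (-0.054) and Rplp0 (-0.15); with the authors' values for St3gal1 (0.075), Rps14 (-0.044) and Rplp0 (-0.15); and with spike-in centring for St6galnac6 (-0.066). With 1 array left out St6galnac6 lay between -0.057 and 0.18, negative without control array 1 or PRH-labelled array 3, and St3gal1 between -0.14 and 0.045, positive without control array 5. The cause was not tested. Dim probes are the limit of depth: on the 75th-percentile scale their median difference was above 0 (0.61 and 0.55 in the bins of the dimmer St6galnac1 and St6gal1 probes).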
